A study of Mus musculus with 16 samples.

Results

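ErbB receptors and neuregulins were studied in the cortex of mouse pups after early-life pain. The genes were the receptors Erbb4, Erbb2 and Egfr and the ligands Nrg1, Nrg2 and Nrg3, taken by name from the table of all genes, where they are 6 of 36930 entries. All 6 passed the filter on low values, which left 21183 entries. Erbb4 was among the genes the study picked by their abundance and their P-values between the genotypes in these same pups. Differences between the genotypes are therefore given for the 6 genes as a description, with no test.

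RNAseq was done on whole cortices of 16 C57BL6 pups at P7, with 8 ChR2-flfl and 8 Avil-ChR2 pups. All pups, controls included, carried the floxed Ai27D construct at the Rosa26 locus, a fusion of the light-gated channel channelrhodopsin-2 (ChR2) with tdTomato behind a loxP-flanked STOP. Each pup, of either genotype, spent 1 h per day in blue light on the days P1 to P5. Avil-ChR2 pups in addition carried Cre recombinase under the advillin (Avil) promoter, known mainly from peripheral sensory neurons. Cre removes the STOP where that promoter is active. Whether it did so in the cortex was not tested here, since no value of the construct itself was used. Reads of Avil, given further on, were higher in the cortices of Avil-ChR2 pups, and their source was not tested. The study reports a check of ChR2 expression as RNA and protein, with no tissue named there. ChR2-flfl pups had no Cre. Neither pups kept without blue light nor Cre pups without ChR2 are among these samples. The genotypes were litter mates, but which pups shared a litter is not in the labels.

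The values are normalized reads, that is the share of a gene in all reads of a pup (CPM), scaled with TMM factors. The reads behind them summed to between 30549126 and 48711134 per pup, with a median of 48442435.5 in ChR2-flfl and 48606820.5 in Avil-ChR2 pups. ChR2-flfl replicate 3 had the lowest sum. Avil itself had between 0.825 and 1.46 normalized reads in ChR2-flfl pups and between 37.3 and 46.4 in Avil-ChR2 pups, with no overlap, as the labels of genotype have it. The labels list 4 female and 4 male ChR2-flfl and 5 female and 3 male Avil-ChR2 pups. For 1 pup the label goes against the data. Avil-ChR2 replicate 4 is labelled female, but its Y-linked Ddx3y had 54.7 normalized reads, whereas the other pups labelled female had between 1.71 and 2.57 and those labelled male between 50.7 and 73.4. The study lists this pup as male. Tests of sex were run with both.

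ErbB receptors are receptor tyrosine kinases that pair upon ligand binding and signal through adaptors to the Ras/MAP kinase and PI3 kinase/Akt pathways. Erbb4 binds neuregulins directly, Erbb2 binds no known ligand and serves as partner of the other receptors, and Egfr binds EGF-like ligands other than neuregulins. Neuregulins are made as membrane proteins and are released by proteases. In the cortex, Erbb4 is best known from inhibitory interneurons, where neuregulin signalling takes part in migration and in the formation of synapses, whereas Egfr and Erbb2 are known from glial and progenitor cells.

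The genes differ strongly in size, and most are large. On GRCm38, Erbb4 lies on the minus strand of chromosome 1 from 68031904 to 69108794, Nrg1 on the minus strand of chromosome 8 from 31807452 to 32890583, and Nrg3 on the minus strand of chromosome 14 from 38365102 to 39473113. These 3 genes span 1076891, 1083132 and 1108012 bases. Nrg2 spans 182290 bases on the minus strand of chromosome 18 (36016758 to 36199047). Egfr spans 161705 bases (16752203 to 16913907) and Erbb2 25233 bases (98412484 to 98437716), both on the plus strand of chromosome 11. In the GENCODE annotation, the longest transcript of Erbb4 has 12037 nucleotides in 27 exons, that of Nrg1 5415 in 13 and that of Nrg3 4011 in 10, so that most of each span is intron. Nrg1 has 18 annotated transcripts, Erbb4 5 and Nrg3 4. There is 1 value per gene and pup, and isoforms were not analysed here. Whether reads within introns were counted was not tested. Levels per kb of transcript, given further on, assume that the reads come from exons.

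Erbb4, the neuregulin receptor of interneurons, had lower values in most Avil-ChR2 pups. In ChR2-flfl cortices it had between 88.0 and 116 normalized reads with a median of 98.6, and in Avil-ChR2 cortices between 83.8 and 90.8 with a median of 86.6. The groups overlapped, but 6 ChR2-flfl pups lay above the highest Avil-ChR2 pup and 5 Avil-ChR2 pups lay below the lowest ChR2-flfl pup. The ChR2-flfl pups spread more widely (SD 9.02) than the Avil-ChR2 pups (SD 2.49), and the 2 highest pups of all were ChR2-flfl replicates 7 (116) and 1 (106). The means were 98.7 ± 9.02 and 87.0 ± 2.49 (SD of 8 pups each). The difference of the mean log2 values was -0.18 (standard error 0.044), which is -11.6% when turned back to the linear scale. Pup numbers fall in 2 runs, 26 to 33 and 35 to 42, which hold 4 pups of each genotype each. The first run gave -0.16 and the second -0.20. With each pup left out in turn it lay between -0.20 and -0.14, the latter without ChR2-flfl replicate 7. It was -0.10 with the span slope described further on as a covariate. Between 2722 and 5586 reads per pup stand behind these values, for which counting alone gives a coefficient of variation of at most 1.92%, against 9.14% between the ChR2-flfl and 2.86% between the Avil-ChR2 pups. As cortices were measured in bulk, fewer cells that express a gene and less RNA per cell cannot be told apart.

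**Figure D1:**
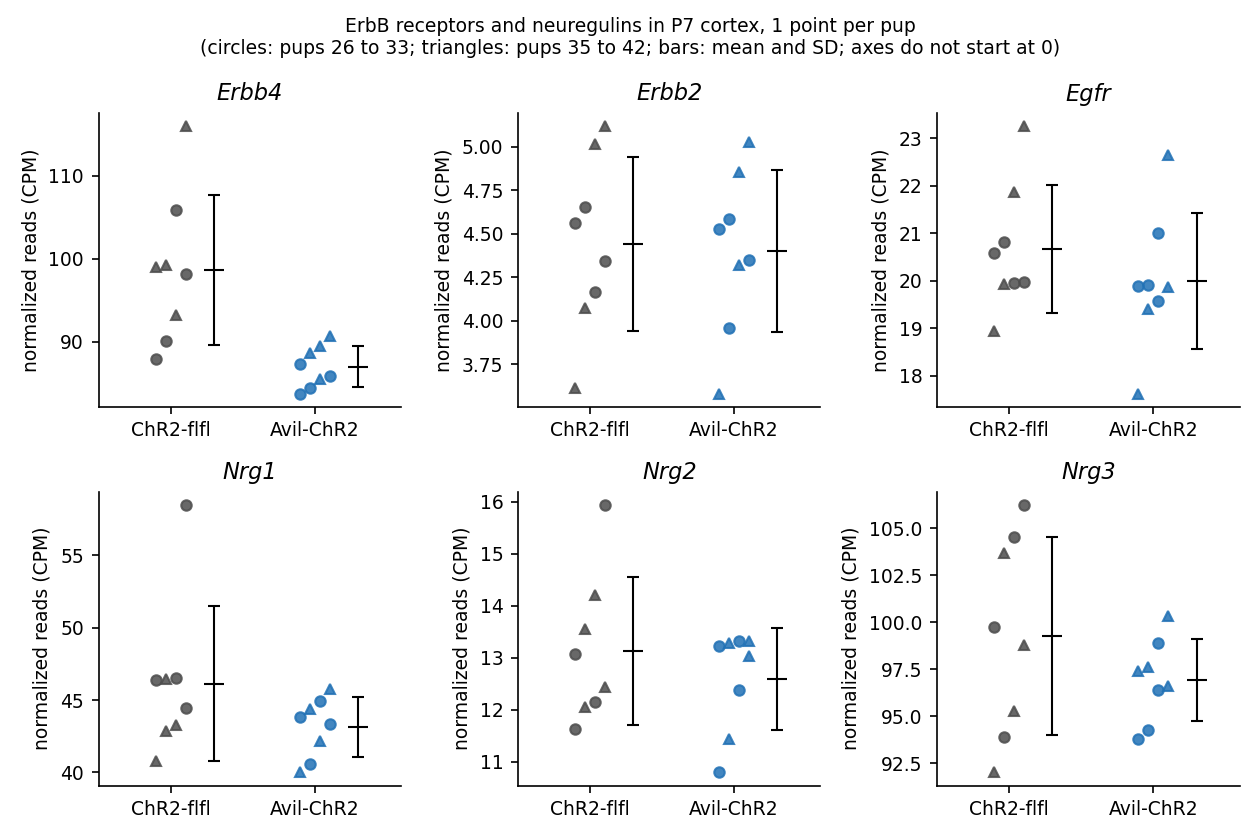
Normalized reads (CPM, linear axes that do not start at 0) of the 6 genes in each pup by genotype, with the mean and SD beside the points. Circles are pups 26 to 33 and triangles pups 35 to 42. For Erbb4, 6 of 8 ChR2-flfl pups lie above the highest Avil-ChR2 pup, whereas the genotypes lie in the same range for Erbb2 and Egfr.

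The other receptors showed smaller differences. Egfr had between 18.9 and 23.3 normalized reads in ChR2-flfl pups (median 20.3) and between 17.6 and 22.7 in Avil-ChR2 pups (median 19.9). The groups overlapped over nearly their whole range. The log2 difference was -0.05 (standard error 0.048). It was -0.02 without Avil-ChR2 replicate 8 and also without ChR2-flfl replicate 7, and the runs gave -0.02 (pups 26 to 33) and -0.08 (pups 35 to 42). Erbb2 was the gene with the fewest reads, between 144 and 248 per pup, so that counting alone gives a coefficient of variation of up to 8.33%. It had between 3.61 and 5.12 normalized reads in ChR2-flfl pups (median 4.45) and between 3.58 and 5.03 in Avil-ChR2 pups (median 4.44). Its log2 difference of -0.01 (standard error 0.082) was far smaller than the spread between pups, and its sign turned when single pups were left out (-0.05 to 0.03).

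Among the ligands, Nrg1 had the largest difference, and 1 pup carried much of it. Nrg1 had between 40.8 and 58.5 normalized reads in ChR2-flfl pups (median 45.4) and between 40.0 and 45.8 in Avil-ChR2 pups (median 43.6). ChR2-flfl replicate 1 with 58.5 stood apart from the other 7 ChR2-flfl pups, which did not exceed 46.5. The log2 difference of -0.09 (standard error 0.055) was -0.04 (standard error 0.037) without this pup. It was -0.17 in the run of pups that includes it and -0.01 in the other. Nrg2 had between 11.6 and 15.9 normalized reads in ChR2-flfl (median 12.7) and between 10.8 and 13.3 in Avil-ChR2 pups (median 13.1), and the log2 difference of the means was -0.06 (standard error 0.064) while the medians differed the other way. Its highest value, too, was that of ChR2-flfl replicate 1, and without this pup the difference was -0.02. Without Avil-ChR2 replicate 4, the lowest Avil-ChR2 pup, it was -0.03. Nrg3 varied least between pups. It had between 92.0 and 106 normalized reads in ChR2-flfl pups (median 99.3) and between 93.8 and 100.3 in Avil-ChR2 pups (median 97.0), with a log2 difference of -0.03 (standard error 0.030). The first run of pups gave -0.08 and the second 0.01, and without ChR2-flfl replicate 1 it was -0.02.

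All 6 genes had a negative difference, and 48.6% of all genes tested were lower in Avil-ChR2 pups. Of the genes over 1000 kb described further on, which include Erbb4, Nrg1 and Nrg3, 78.7% were lower. The difference of Erbb2 turned positive without single pups and in pups 35 to 42 alone. That of Nrg3 did so in pups 35 to 42 alone and with the span slope given further on. For none of the 6 genes did the genotypes separate without overlap, which 0.0283% of all genes tested did. In the limma fit over all genes with Benjamini-Hochberg adjustment, 2 of 21183 genes (0.00944%) passed an adjusted p of 0.05 between the genotypes. They were Avil and Mars (methionine-tRNA synthetase), named here since they are the only ones. The call of Mars (-0.15 on the log2 scale, limma adjusted p = 0.0215) held in 6 of 16 fits with 1 pup left out, where the adjusted p reached 0.0845, and in 8 of 13 other settings, whereas Avil passed in all of these. At an unadjusted p under 0.05 there were 1145 genes (5.41%). All 8 Avil-ChR2 pups lay below the ChR2-flfl mean for Erbb4 and Nrg1, which held for 4.03% of all genes tested. Nothing is read from these counts for the 6 genes, since their choice used this contrast.

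Levels were compared between genes per kb of the longest transcript. As abundance was part of how the study picked Erbb4, the place of this gene is a description. Over all 16 pups, Nrg3 had the highest level with 24.5 ± 1.02 normalized reads per kb (SD, n = 16). Nrg1 followed with 8.24 ± 0.782 and Erbb4 with 7.71 ± 0.731. Nrg2 had 4.21 ± 0.396, Egfr 1.99 ± 0.136 and Erbb2 0.882 ± 0.0934 normalized reads per kb. Nrg3 was above Nrg1 by a factor of 2.97, and so in 16 of 16 pups. Per mean length of the annotated transcripts this factor was 1.53, so that its size depends on the length used. Nrg1 and Erbb4 did not differ beyond their spread. Their ratio was 1.07, Nrg1 was the higher in 11 of 16 pups, and the ranges overlapped. All other neighbours in this order were apart in 16 of 16 pups with no overlap. The order was the same per mean transcript length. Per kb of the longest transcript Erbb4 was at 8.74 times the level of its partner Erbb2 (12.7 times per mean transcript length), and Erbb3, another receptor for neuregulins, had 0.201 normalized reads per kb.

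**Figure D2:**
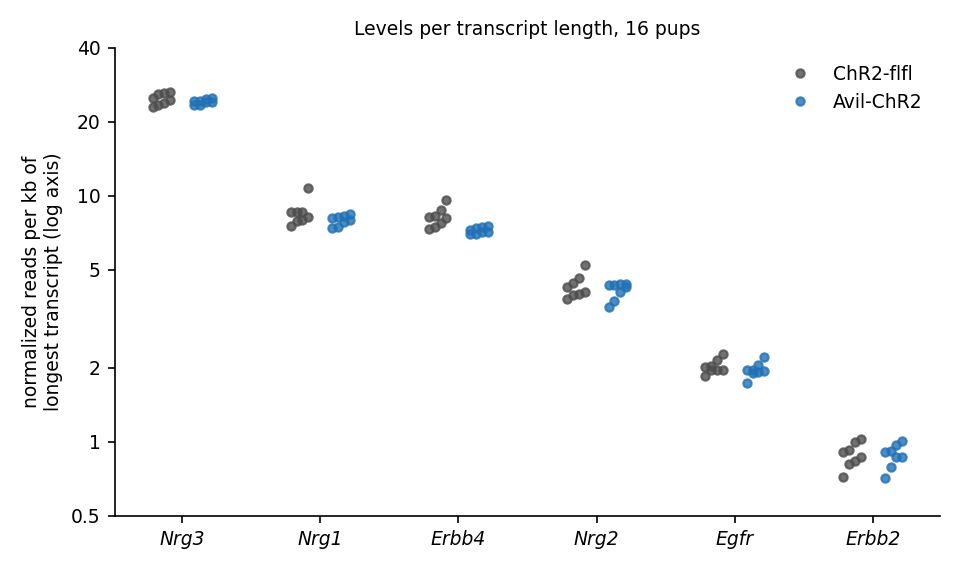
Normalized reads per kb of the longest transcript (log axis) of the 6 genes in each of the 16 pups, in falling order of the mean. Nrg3 lies at 24.5 and Erbb2 at 0.882, and the points of Nrg1 and Erbb4 overlap.

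The sequences before the start sites of the genes at both ends of this order are shown to compare their content of CpG. They are the 250 bases upstream of the RefSeq start (GRCm38.p6, 5′ to 3′ on the strand of the gene), with each CpG in capitals. The window of Nrg3 is chr14:39473089-39473338 on the minus strand and that of Erbb2 is chr11:98412234-98412483 on the plus strand.
Nrg3: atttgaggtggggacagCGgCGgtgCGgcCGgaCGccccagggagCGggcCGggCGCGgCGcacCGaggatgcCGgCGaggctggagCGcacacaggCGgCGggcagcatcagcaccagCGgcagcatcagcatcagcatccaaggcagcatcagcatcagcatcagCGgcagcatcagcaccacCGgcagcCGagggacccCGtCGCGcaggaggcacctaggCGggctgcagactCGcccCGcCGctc
Erbb2: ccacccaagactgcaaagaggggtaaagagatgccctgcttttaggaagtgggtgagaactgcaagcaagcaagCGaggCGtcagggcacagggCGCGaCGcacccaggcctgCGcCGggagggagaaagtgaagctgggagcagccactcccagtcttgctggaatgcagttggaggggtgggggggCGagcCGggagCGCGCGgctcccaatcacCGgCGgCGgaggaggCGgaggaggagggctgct
The Nrg3 window holds 27 CpG, more than 91.4% of 32851 promoters of that length, and a run of repeated cagcat units. The Erbb2 window holds 16, more than 74.6%, and the windows of Erbb4 and Egfr hold 12 and 11, where the median of all promoters was 6. Exons of the GENCODE annotation take up 0 bases of the Nrg3 window and 14 bases of the Erbb2 window. The starts of RefSeq are not always those of the table, where 25 bases of the Nrg3 window and all 250 of the Erbb4 window lie inside the entry of the gene itself. Of the Nrg3 window, 244 bases also lie inside LOC432842, an entry on the other strand. The letters of 4 motifs were searched on both strands. The GC box (GGGCGG), which 32.7% of all promoters hold, was found in the window of Egfr and not in those of Erbb4, Erbb2 and Nrg3. The TATA box (TATAAA, 12.4% of all promoters), the cAMP response element (TGACGTCA, 1.55%) and the E-box (CACGTG, 6.02%) were found in none of these 4 windows. These matches describe the letters only.

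Sex and pup number are contrasts that the choice of genes did not use. In limma with genotype in the model, 9 of 21183 genes (0.0425%) differed between the sexes at an adjusted p under 0.05, and 0 of the 6 genes were among them. At an unadjusted p under 0.05, 944 genes differed (4.46%), and again 0 of the 6. All 6 were lower in females in sign, as were 48.5% of all genes, but Nrg1 was not without ChR2-flfl replicate 1 (0.0061) and Erbb2 not without Avil-ChR2 replicate 6 (0.0022). The difference (female minus male, log2) was largest for Nrg2 with -0.10 (standard error 0.062, limma adjusted p = 0.988) and for Egfr with -0.08 (standard error 0.046, limma adjusted p = 0.988). Without ChR2-flfl replicate 1 that of Nrg2 was -0.06. For Erbb4 it was -0.06 (standard error 0.044) and -0.03 without ChR2-flfl replicate 7. Its means were 90.3 normalized reads in the pups labelled female and 96.1 in those labelled male. With the sexes as the study lists them, the difference of Nrg2 was -0.04, that of Erbb4 was -0.05 and that of Egfr stayed at -0.08. Erbb2 then had -0.03, Nrg1 -0.02 and Nrg3 -0.01, and again 0 of the 6 genes passed. Between the runs of pup numbers, 26 genes (0.123%) passed the adjusted threshold and 2649 (12.5%) had an unadjusted p under 0.05, with 0 of the 6 in either. The former count lay between 7 and 123 with 1 pup left out and was 4 with no filter on low values. In pups 35 to 42 relative to pups 26 to 33 Erbb4 had 0.07 (log2, standard error 0.041, limma adjusted p = 0.495), which was 0.04 without ChR2-flfl replicate 7. Nrg1 had -0.09 (standard error 0.052, limma adjusted p = 0.53), which was -0.04 without ChR2-flfl replicate 1. The interaction of genotype and sex passed for 0 genes by limma, with 912 (4.31%) at an unadjusted p under 0.05.

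The genotype difference was then set against the genomic span of the gene, in the 15137 genes whose log2 values averaged 0 or more. Genes of up to 10 kb had a median log2 difference of 0.02, and 32.1% of them were lower in Avil-ChR2 pups. The median fell with each step in span, to -0.04 in 493 genes of 300 to 1000 kb and -0.05 in the 61 genes over 1000 kb, of which 78.7% were lower. Erbb4, Nrg1 and Nrg3 are among these 61 genes, where they take ranks 8, 19 and 38 from the most negative difference. The rank of Erbb4 is a description only, since the study picked this gene on the same contrast. Ahead of Erbb4 were, among others, Tenm2 (-0.22, a synaptic adhesion molecule), Csmd1 (-0.19) and Csmd3 (-0.19). Dcc, a netrin receptor, was close behind with -0.16, and the neurexin Nrxn3 had -0.12. These genes were named after their values were seen, by rank.

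**Figure D3:**
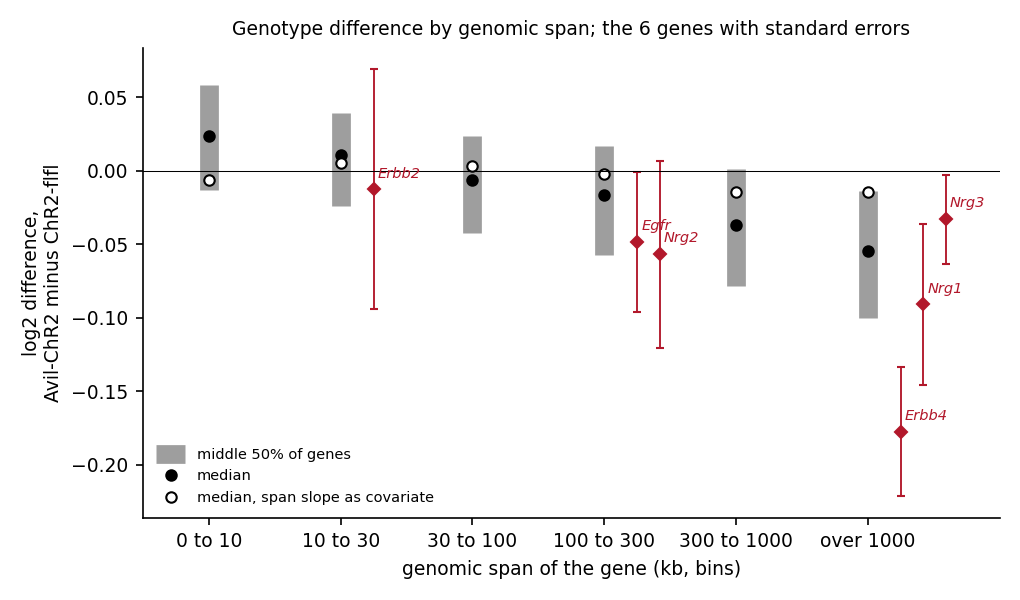
Log2 difference between the genotypes by genomic span (kb, bins) in the same 15137 genes. Grey bars hold the middle 50% of the genes, filled points are medians, and open points are medians with the span slope of each pup in the model. The 6 genes are shown with standard errors. The median falls from 0.02 in the shortest to -0.05 in the longest genes. Erbb4, which the study picked on this same contrast, lies with -0.18 below the grey bar of its bin.

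To describe this in single pups, the slope of log2 values on log10 span was calculated per pup over these 15137 genes, referred to as span slope. A higher slope means that longer genes had more reads relative to short ones. It was 0.919 ± 0.0344 in ChR2-flfl and 0.889 ± 0.0243 in Avil-ChR2 pups (means and SD of 8 pups each), with ranges of 0.868 to 0.973 and 0.864 to 0.934 that overlapped. With the genotype means removed, Erbb4 followed the span slope closely (r = 0.83, adjusted p = 0.00078; rho = 0.85, adjusted p = 0.0021; two-sided permutation tests within genotype, adjusted over the 6 genes, n = 16 pups). Without the 2 pups farthest from the median slope, r was 0.82. Within pups 26 to 33 and within pups 35 to 42 r was 0.80 in both, and it was 0.92 in ChR2-flfl and 0.68 in Avil-ChR2 pups. Of 15197 genes with at least 1 normalized read on average, 0.48% had an r as high as Erbb4 or higher, and of the 61 genes over 1000 kb 3 had, with a median r of 0.39. Nrg3 had r = 0.63 (adjusted p = 0.0701, permutation test) and rho = 0.59 (adjusted p = 0.113). Nrg1, of the same span, had r = 0.26 (adjusted p = 0.506, permutation test) and rho = 0.29 (adjusted p = 0.43), but r was 0.60 within pups 26 to 33 and 0.52 within pups 35 to 42. Whether the genes differ in their relation to the slope was not tested. Erbb2, Egfr and Nrg2 had r between -0.37 and 0.36, with adjusted p of 0.265 or more (permutation tests). The r of Egfr, 0.36 with rho = 0.08, turned to -0.27 without the 2 farthest pups. For this gene it was -0.07 within pups 26 to 33 and 0.55 within pups 35 to 42. The slope and the genes come from the same libraries, and what sets the slope in a pup was not tested. With the slope as a covariate, the genotype difference of Erbb4 was -0.10 (standard error 0.032), that of Nrg1 was -0.06 (standard error 0.061) and that of Nrg3 0.005 (standard error 0.029). Erbb2 had -0.07, Egfr -0.01 and Nrg2 -0.05 with the slope.

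**Figure D4:**
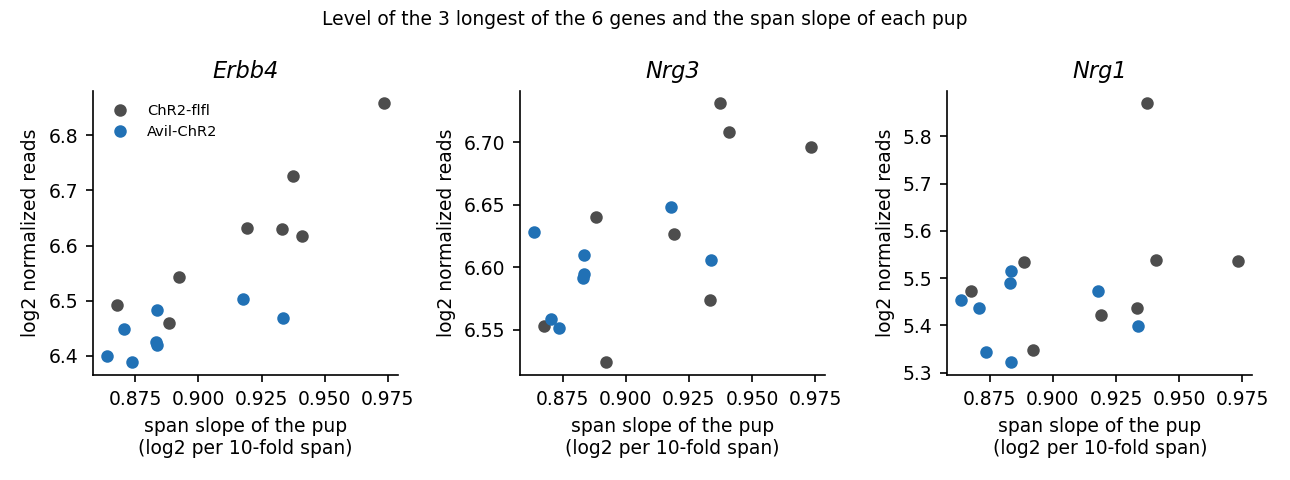
Log2 normalized reads of Erbb4, Nrg3 and Nrg1 against the span slope of each pup (log2 per 10-fold span), 1 point per pup, coloured by genotype. Erbb4 rises with the slope in both genotypes (r = 0.92 in ChR2-flfl and 0.68 in Avil-ChR2 pups). For Nrg1, r was 0.26 over all pups with genotype means removed.

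The genes were then compared with each other over the 16 pups, with genotype means removed. Of 15 pairs, 10 had a positive r. The ligands Nrg1 and Nrg3 varied together (r = 0.72, adjusted p = 0.033; rho = 0.71, adjusted p = 0.037; permutation tests, two-sided, adjusted over 15 pairs), with r = 0.74 in pups 26 to 33 and 0.78 in pups 35 to 42. Within ChR2-flfl pups r was 0.77, and within Avil-ChR2 pups it was lower with 0.47. Over both genotypes without the 2 pups farthest from the median r was 0.52, so that the relation rests in part on these pups. With the span slope removed, that is with the slope of each pup times the log10 span of the gene subtracted, r was 0.75 (adjusted p = 0.0118, permutation test), and 0.69 without the 2 farthest pups. Erbb4 and its partner Erbb2 varied in opposite directions, but the test did not pass (r = -0.61, adjusted p = 0.093; rho = -0.57, adjusted p = 0.245; permutation tests), and without the 2 pups farthest from the median r was -0.45. With the span slope removed r was -0.66 (adjusted p = 0.0388, permutation test), and -0.57 without the 2 farthest pups. Erbb4 and Nrg3 had r = 0.58 (adjusted p = 0.225, permutation test), which was -0.01 with the slope removed, but 0.43 when the 2 farthest pups were also left out.

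The genes whose pattern over the pups was most like that of Erbb4 were found by Pearson's r over 16 pups with genotype means removed, among 15197 genes. They were Ptprd (r = 0.94), Kcnma1 (0.93), Dgki (0.92), Celf2 (0.92) and Chd2 (0.91). The first 4 span between 462680 and 2270659 bases, and Chd2 spans 115095. Their own genotype differences were -0.11, -0.09, -0.11, -0.09 and -0.04. For Erbb4, 164 genes had an r over 0.8, against 36 for Nrg2, 18 for Nrg3, 11 for Nrg1, and 2 each for Erbb2 and Egfr. Those most like Nrg1 were Kcnq1 (0.89), Ralgapa2 (0.88) and Grik1 (0.87), and those most like Nrg3 were Sycp2 (0.89), Msantd2 (0.88) and Stk38 (0.88), which span 62364 bases or less. Nrg2 was most like Pik3c2b (0.90) and Srrm3 (0.88). Erbb2 was most like Tnfrsf1a (0.84), Ace (0.80) and Eif3l (0.80), and Egfr most like LOC105244672 (0.81), Mto1 (0.81) and Cntnap5a (0.80). These r are descriptions, and the pups share depth and library with both genes of each pair.

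None of the other genes of the pathway passed the test between the genotypes. The list held 89 genes, of which 88 passed the filter (Ereg did not). In limma, 0 of 88 passed an adjusted p of 0.05 (0.00944% of all genes), and 4 had an unadjusted p under 0.05. Of these 3 were lower in Avil-ChR2 pups, as were 3.46% of all genes at that p, and 1 was higher, as were 1.95% of all genes. Their median log2 difference was 0.003, and that of all genes tested was 0.002. The receptor Erbb3 had 1.18 ± 0.207 normalized reads in ChR2-flfl and 1.24 in Avil-ChR2 pups. Among the 7 other ligands tested, Tgfa and Hbegf, which bind Egfr, were the most abundant with 18.3 and 18.6 normalized reads, and had log2 differences of 0.05 and 0.02, which were -0.07 and -0.0052 with the span slope as a covariate. The 9 genes of ligand and receptor cleavage, which release neuregulins or cut Erbb4 (Adam10, Adam17, Bace1 and the gamma-secretase subunits among them), lay between -0.04 and 0.04.

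Downstream of the receptors, the 14 adaptors had a median log2 difference of -0.02, the 11 genes of PI3 kinase and Akt -0.03, the 10 genes of Ras and MAP kinase 0.003 and the 12 other effectors -0.009. Those with an unadjusted p under 0.05 were Cbl, Lrig2 and Braf, with negative differences, and Fos with a positive one. Cbl, a ubiquitin ligase that tags activated receptors for degradation, had 83.8 normalized reads in ChR2-flfl and 75.1 in Avil-ChR2 pups, which is -0.15 on the log2 scale (standard error 0.048, adjusted p = 0.813 in limma). Lrig2, a membrane protein of a family that modulates ErbB receptors, had -0.11 (limma adjusted p = 0.831), and the kinase Braf had -0.10 (limma adjusted p = 0.841). With the span slope as a covariate, these were -0.09, -0.07 and -0.03. The 7 genes that respond to ERK activity all had positive differences, between 0.004 (Etv1) and 0.27 (Fos), of which 0 passed, and 51.4% of all genes tested were higher in sign. By span, only 32.1% of genes of up to 10 kb, as Fos, Egr1 and Dusp6 are, were lower. Of genes of 10 to 30 kb (Dusp4 and Etv4) 41.2% were lower, and of those of 30 to 100 kb (Etv1 and Etv5) 55.6%. With the span slope as a covariate Dusp4 had -0.01 and Etv5 -0.00055, and in pups 26 to 33 alone Etv1 had -0.07 and Dusp6 -0.0065. Fos, the early response transcription factor, had between 2.08 and 2.61 normalized reads in ChR2-flfl pups (median 2.34) and between 2.10 and 3.54 in Avil-ChR2 pups (median 2.88), which is 0.27 on the log2 scale (standard error 0.102, adjusted p = 0.841 in limma). The postsynaptic scaffold Dlg4, to which Erbb4 binds, had 0.06 (standard error 0.039).

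**Figure D5:**
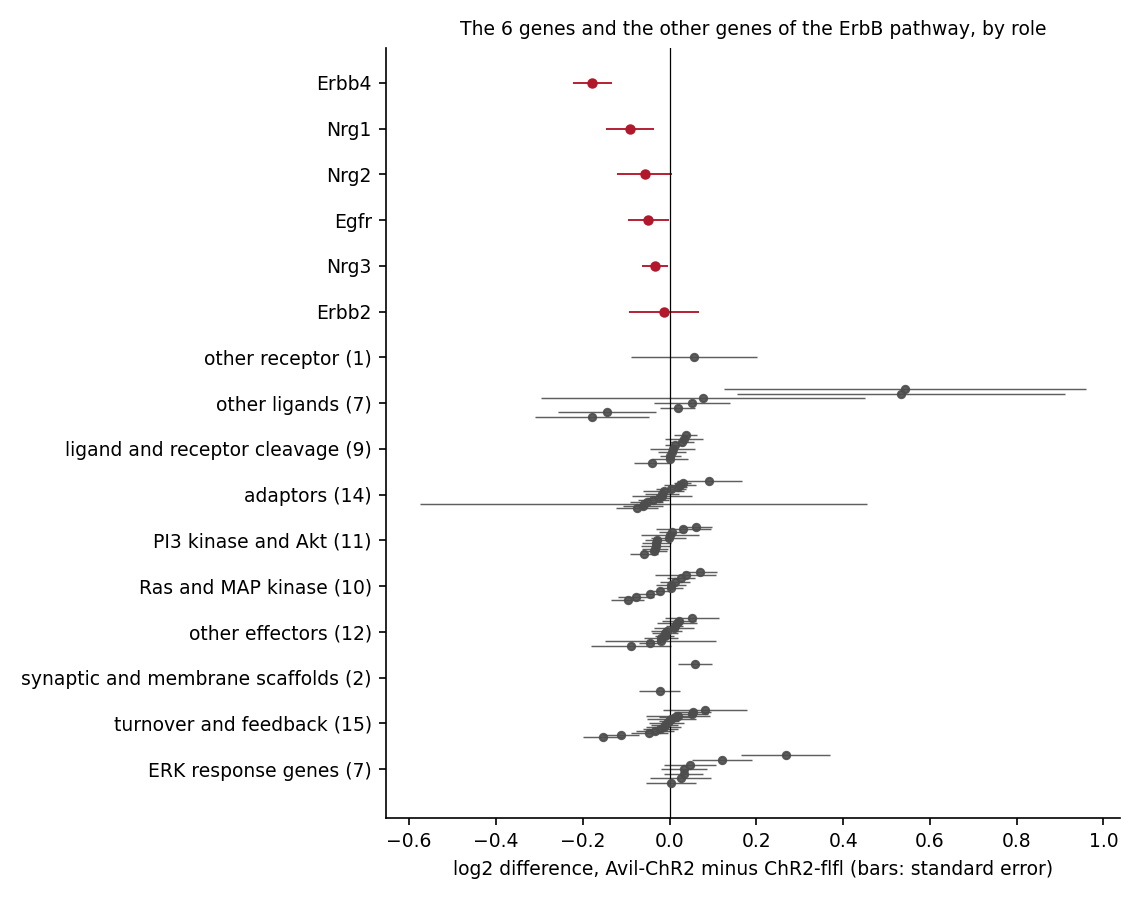
Log2 difference between the genotypes (Avil-ChR2 minus ChR2-flfl, bars are standard errors) of the 6 genes in red and of the 88 other pathway genes in grey, grouped by role with the number of genes in brackets. The pathway genes lie on both sides of 0 with a median of 0.003, and the 2 rare ligands beyond 0.5, Areg and Epgn, have wide errors.

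Markers of cell types were measured in the same pups. The summed level of 16 markers of interneurons, the cells known for Erbb4, was 487 ± 20.4 normalized reads in ChR2-flfl and 495 ± 21.4 in Avil-ChR2 pups (means and SD of 8 pups each), and its most abundant gene was Gad1 with 101. Of the 15 that passed the filter, 9 were higher and 6 lower in sign, and 0 passed in limma, also at an unadjusted p under 0.05. Whether part of this sum came from striatum, whose markers are given further on, was not tested. Lhx6, a transcription factor of interneurons from the medial ganglionic eminence, had 39.2 and 38.9 normalized reads. The 10 markers of cortical excitatory neurons (most abundant Slc17a7) summed to 1536 ± 34.8 and 1574 ± 48.0, a difference of about the size of the SD. Slc17a7 had a log2 difference of 0.11 (standard error 0.049, adjusted p = 0.884 in limma), which was 0.04 with the span slope as a covariate. The sums of the other lists differed by less than the SD of either genotype. They were 351 ± 33.3 and 357 ± 31.6 for 8 of the oligodendrocyte lineage (Pdgfra), 778 ± 64.5 and 812 ± 44.4 for 6 of astrocytes (Slc1a3), 60.2 ± 4.38 and 58.2 ± 2.92 for 7 of progenitors (Top2a), 65.8 ± 9.29 and 68.0 ± 5.33 for 5 of microglia (Csf1r) and 174 ± 6.23 and 178 ± 11.2 for 5 of endothelial cells (Kdr).

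Markers of neighbouring tissue were also read. The 5 markers of meninges summed to 403 ± 85.1 and 408 ± 117 (most abundant Igf2) and varied widely between pups, and the 5 of striatum to 89.1 ± 11.4 and 90.1 ± 12.5 (Rgs9). The 3 markers of choroid plexus were at 1.365 ± 0.336 and 1.52 ± 0.464, most of which was Kl. The defining marker Ttr was low, with 0.118 normalized reads in ChR2-flfl and 0.319 in Avil-ChR2 pups on average (log2 1.33, standard error 0.634, adjusted p = 0.911 and unadjusted p = 0.0491 in limma). Avil-ChR2 replicate 2 with 1.19 carried much of this mean, which was 0.194 without it, and the log2 difference was then 0.96 (standard error 0.591). With the span slope as a covariate it was 0.70 (standard error 0.673). The 4 Hox genes of hindbrain and spinal cord were near 0, with sums of at most 0.104. The marker of cortical excitatory neurons Slc17a7 had 488 normalized reads on average, in keeping with the label of the tissue. For none of the lists did the genotypes separate without overlap. The part of cell type shares in the difference of Erbb4 was not tested beyond these values.

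Dlx6, Sox2 and P2ry12 were listed with no value in any pup, although their cells' other markers were present, and Xist had a value in only 2 pups, while 8 of the 9 pups labelled female had none. All 4 lie within the span of another entry. Of 5866 entries that lie wholly within another one, 94.4% had no value in any pup, against 13.6% of 22239 entries that overlap no other. A missing value of a nested gene is therefore not read as absence. This bears on the 6 genes, since 14 entries overlap them, of which 11 had no value. Among these 11 are Nrg3os, the opposite-strand transcript of Nrg3, and 5 of the 6 entries that overlap Nrg1. Whether reads of nested entries were added to the outer gene was not tested. No entry of the table overlaps Erbb4. Erbb2 shares 9 bases at its end with Mien1 on the other strand, which had 45.1 normalized reads against 4.42 for Erbb2.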

How the data were processed

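Cortical RNA of 16 pups was sequenced from stranded mRNA libraries. The authors used SeqMan NGen to align reads, with a minimum length of 50 bp, to the mm10 genome (GRCm38), took counts per gene from ArrayStar and scaled them with TMM factors (edgeR, per the submitters' processing notes). The deposited values are linear CPM in a column for each pup, and cells of genes without reads are empty. How reads of overlapping genes were shared, and whether counting used the strand, is not given in the sources used here. Dividing each value by what 1 read is worth in its pup gave the reads per gene, which were whole to within 0.05 for 100% of values of up to 20000 reads. The libraries carry no molecular identifiers, so depth covers counting error only. Errors are those between pups.

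Values were log2 transformed, those missing or below -5 were set to -5 (4432 of 338928), and genes above -5 in at least 12 of 16 pups were kept. Genotypes, sexes and runs of pup numbers were compared with limma 3.58.1 in R 4.3.3 (eBayes with trend), adjusted after Benjamini-Hochberg over all 21183 genes. Correlations used 100000 permutations within genotype. Transcript lengths are those of GENCODE and were found for 82.5% of the genes, and promoters are those of RefSeq (GRCm38.p6). Erbin was matched by its older symbol, Erbb2ip. The script was tested on simulated data.

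The 6 genes, the pathway list and the marker lists were chosen with earlier results of these data known. Named are the 6 genes, the pathway and marker genes, and by rank those most like each gene; other genes were named after their values were seen. P-values measure the spread between pups, whose litters are not in the labels. The replicate numbers of the genotypes are serial numbers of different animals, and same-numbered pups did not deviate together (r between -0.34 and 0.39). Alternatives were other filters, scalings and transforms, covariates, single runs, and each pup left out. Some genes that the rule names are not reported here.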

Additional observations from a re-analysis of the deposited data

Results flagged for a closer look

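Nrg1 in ChR2-flfl replicate 1 was the highest of 8 pups with 58.481 normalized reads, and its gap to the next pup was 0.676 of the range of the group, above Dixon's 95% critical value for 8 samples. This was 1 of 12 groups looked at, and chance alone flags about 1 in 20. Without this pup, the log2 genotype difference of Nrg1 was -0.04 (standard error 0.037) in place of -0.09, and that of Nrg2 was -0.02 in place of -0.06. The same pup had the highest values of Nrg2 (15.9) and Nrg3 (106.2) and the second highest of Erbb4 (106) among all 16 pups.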

How the results depend on the processing

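Moves of the differences of the 6 genes between the genotypes were set against the SD between single pups, a wide measure that none of them passed, in 10 settings and with 16 left-out pups per gene. Against the differences themselves some moves were large. With the span slope as a covariate they were -0.0962 for Erbb4, -0.0739 for Erbb2, -0.0125 for Egfr, -0.0583 for Nrg1, -0.0477 for Nrg2 and 0.0045 for Nrg3. They lay between -0.2005 and -0.1436 for Erbb4 with each pup left out, between -0.0541 and 0.0287 for Erbb2, -0.0747 and -0.0229 for Egfr, -0.1154 and -0.0409 for Nrg1, -0.0808 and -0.0158 for Nrg2 and -0.0484 and -0.0188 for Nrg3. The sign turned for Erbb2 when single pups were left out and for Erbb2 and Nrg3 in pups 35 to 42 alone, and for Nrg3 with the span slope as a covariate. The count of 0 of the 6 genes between sexes or runs, and of 0 pathway genes between genotypes, was the same in all alternatives. The number of genes called between the genotypes fell from 2 to 1 with median centring, with the replicate number as a block, with the span slope as a covariate, in pups 26 to 33 alone and in pups 35 to 42 alone, and lay between 1 and 2 with each pup left out. The fits within a run had fewer pups, and for the other settings the cause was not tested. The block was run for the genotype comparisons, where it also called 0 pathway genes, and not for sex, runs or pairs, and as the numbers do not pair the pups it is given for completeness only. Between the runs of pup numbers, 26 genes were called, 4 with no filter on low values, and between 7 (without Avil-ChR2 replicate 1) and 123 (without ChR2-flfl replicate 4) with each pup left out; the cause was not tested. Among pairs of the 6 genes 1 was called, and 2 with the span slope removed. The planned test of recovered reads with edgeR was not run, and limma-voom on these reads, chosen after seeing the data, gave -0.18 for Erbb4 and 2 genes between the genotypes. Depth limits Erbb2 most.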
